A study of Mus musculus with 12 samples.

Results

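Tissue macrophages of the heart were followed through 10 marker genes of macrophages and monocytes in RNA labelled as that of isolated mouse cardiomyocytes: *Adgre1*, *Csf1r*, *Cd68*, *Lyve1*, *Mrc1*, *Cd163*, *Timd4*, *Ccr2*, *Cx3cr1* and *C1qa*. They were chosen by name from the 22794 genes of the count table, and all 10 passed the filter on low counts that kept 14412 genes. *Lyve1*, *Timd4*, *Cd163* and *Mrc1* stood for resident macrophages and *Ccr2* for cells recruited from blood monocytes. The other 5 are carried by cardiac macrophages more broadly.

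Resident cardiac macrophages are seeded before birth and renew themselves in the tissue, whereas macrophages that derive from circulating monocytes enter through the chemokine receptor CCR2 and are replaced from blood. In the mouse heart the resident cells are commonly recognised by LYVE1, TIMD4 and FOLR2, take up debris from cardiomyocytes, and depend on signalling through the receptor CSF1R. Loss of resident cells and entry of CCR2-positive cells are known from models of cardiac injury.

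The study set wild-type C57BL6 mice that had undergone 5/6 nephrectomy (NX), a surgical model of chronic kidney disease in which most kidney tissue is removed, against sham-operated mice, each with an injection of JV101 or of saline. The hearts were taken 16 weeks after surgery and the RNA is labelled as that of cardiomyocytes. Each of the 4 groups had 3 libraries: NX JV101, NX saline, sham JV101 and sham saline. The labels do not say what JV101 contains, although the series title speaks of telomere recapping by gene therapy, and they give neither age nor sex of the mice nor the number of hearts in a library. The replicates are numbered without a statement that they are separate animals, so a p-value reflects no more than the variation among these libraries, which may be technical.

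The libraries held 26.4 to 33.8 M counts, of which 8.38 to 20.7 M came from nuclear genes. The 10 genes took 2677 to 17513 counts of a library, or 0.0148% to 0.0878% of its nuclear counts, whereas 10 cardiomyocyte markers took 6.28% to 10.7%. *Myh6*, the alpha myosin heavy chain of the adult mouse heart, averaged 15135 CPM (counts scaled to library size with TMM factors over all genes). Cardiomyocyte markers were thus abundant, and RNA of macrophages was present beside them in every library. Their level cannot tell isolated cardiomyocytes from whole heart tissue. Markers of other cells were also high, with *Gsn* of the fibroblast list at 851 CPM, endothelial *Fabp4* at 397 and pericyte *Rgs5* at 336. In such bulk RNA fewer cells of a type and less RNA per cell cannot be told apart.

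Measured per transcript length, as deposited FPKM averaged over the 12 libraries, the genes fell into a high and a low tier. *C1qa*, a chain of the complement starter C1q that tissue macrophages secrete, led with an FPKM level of 48.6 and was above *Lyve1* in 12 of 12 libraries. *Lyve1*, a hyaluronan receptor shared with lymphatic endothelium, followed at 13.5 FPKM and *Csf1r*, the receptor for CSF1 and IL-34 on which macrophage survival rests, at 13.3 FPKM. Each of this pair was the higher one in 6 of 12 libraries. *Mrc1*, the mannose receptor CD206, and *Cd163*, the haemoglobin scavenger receptor, likewise did not separate, at 8.35 and 8.13 FPKM and with *Mrc1* higher in 6 of 12. *Cd68*, a glycoprotein of macrophage lysosomes, was at 6.63 FPKM and *Adgre1*, which encodes F4/80, at 3.93. The low tier held *Timd4*, the phosphatidylserine receptor TIM-4 that binds dying cells, at 0.872 FPKM, *Ccr2*, the receptor for the monocyte attractant CCL2, at 0.478, and *Cx3cr1*, the fractalkine receptor, at 0.345. *Timd4* was above *Ccr2* in 9 of 12 libraries and *Ccr2* above *Cx3cr1* in 8 of 12. On the same FPKM scale *Timd4* averaged 1.47 ± 0.638 in NX JV101, 0.765 ± 0.0445 in NX saline, 0.744 ± 0.571 in sham JV101 and 0.507 ± 0.134 in sham saline (SD, n = 3 each). *Ccr2* averaged 0.496 ± 0.497, 0.416 ± 0.0215, 0.513 ± 0.153 and 0.486 ± 0.232 FPKM in the same 4 groups, so that the mean of *Timd4* was above that of *Ccr2* in each. In CPM, which takes no account of transcript length, *Ccr2* averaged 2.26 over the 12 libraries and *Timd4* 1.89. On that scale only NX JV101 had the mean of *Timd4* above that of *Ccr2* (2.81 and 1.98 CPM).

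The bases upstream of the genes are shown for 4 members that differ in how they varied: *Mrc1* and *Cd68*, which ran with most of the other genes, and *Timd4* and *Ccr2*, which stood apart. Sequences are 250 bases before the annotated start, 5′ to 3′ on the strand of the gene, from RefSeq on GRCm38.p6, where 6 of the 10 genes had an entry. Macrophage genes are commonly bound by the ETS-family factor PU.1 (*Spi1*) at purine-rich sites. Capitals mark the motifs GAGGAA and GGAAGT on either strand, which read TTCCTC and ACTTCC where they lie on the other strand, and which can overlap in the letters GGAA that both hold.
*Mrc1* (chr2:14229164-14229413, plus strand): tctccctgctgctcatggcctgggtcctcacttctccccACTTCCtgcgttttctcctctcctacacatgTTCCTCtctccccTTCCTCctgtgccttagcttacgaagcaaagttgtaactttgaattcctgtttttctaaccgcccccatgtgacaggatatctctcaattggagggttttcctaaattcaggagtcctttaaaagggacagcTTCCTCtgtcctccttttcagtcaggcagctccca
*Cd68* (chr11:69666171-69666420, minus strand): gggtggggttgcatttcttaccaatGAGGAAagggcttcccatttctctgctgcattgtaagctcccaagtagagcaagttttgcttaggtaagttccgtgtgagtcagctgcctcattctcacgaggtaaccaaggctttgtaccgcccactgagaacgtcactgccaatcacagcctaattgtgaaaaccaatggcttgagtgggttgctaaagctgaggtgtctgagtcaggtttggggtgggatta
*Timd4* (chr11:46810549-46810798, plus strand): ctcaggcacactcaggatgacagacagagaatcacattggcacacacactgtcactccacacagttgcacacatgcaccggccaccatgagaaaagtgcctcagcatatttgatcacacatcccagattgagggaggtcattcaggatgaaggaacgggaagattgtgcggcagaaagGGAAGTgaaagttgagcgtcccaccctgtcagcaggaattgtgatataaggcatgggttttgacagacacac
*Ccr2* (chr9:124101933-124102182, plus strand): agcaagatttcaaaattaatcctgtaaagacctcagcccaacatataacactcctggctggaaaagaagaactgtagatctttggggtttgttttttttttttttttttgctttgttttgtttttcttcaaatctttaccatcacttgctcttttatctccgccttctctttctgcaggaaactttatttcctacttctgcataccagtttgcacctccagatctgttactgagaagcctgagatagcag
The *Mrc1* window held 3 copies of GAGGAA and the *Cd68* window 1 copy. GGAAGT occurred in the *Mrc1* and *Timd4* windows. The windows of *Ccr2*, *Cd163* and *Cx3cr1* held neither, so 3 of 6 members had either motif, against 36.7% of 32851 promoters of the same length (23.3% for GAGGAA and 19.7% for GGAAGT). A match describes letters in this window and no binding was measured.

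In each of the 10 genes the widest gap between libraries of one group exceeded the widest gap between group means. NX JV101 replicate 2 had the highest CPM for 8 of the 10 genes, all but *Cd163* and *Cx3cr1*, and sham JV101 replicate 3 had the lowest for 8 of the 10, all but *Ccr2* and *Cx3cr1*. The summed level of the 10 genes ran from 156 to 413 CPM in NX JV101, from 208 to 301 CPM in NX saline, from 80.2 to 382 CPM in sham JV101 and from 110 to 283 CPM in sham saline. The heat map of the 10 genes shows these libraries as whole columns of red or blue.

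**Figure D1:**
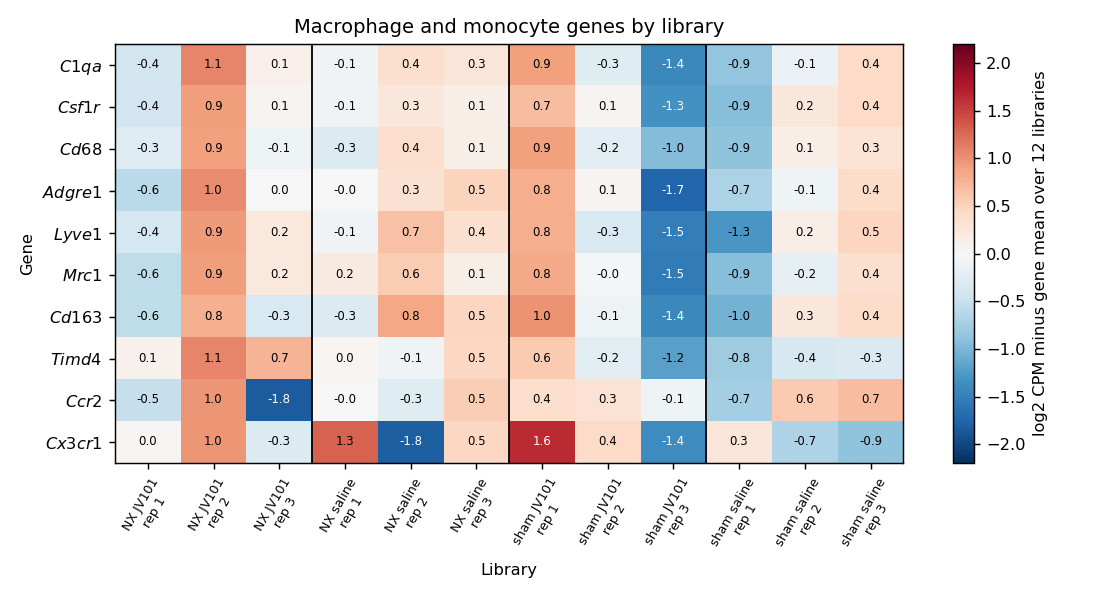
Log2 CPM of each of the 10 genes in each of the 12 libraries, minus the gene's mean over the 12, with genes in rows and libraries in columns grouped as NX JV101, NX saline, sham JV101 and sham saline. From *C1qa* down to *Cd163* the rows share one pattern of high and low libraries, while *Ccr2* is lowest in NX JV101 replicate 3 and *Cx3cr1* in NX saline replicate 2.

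Among the resident markers, *Lyve1* stood at 23.0, 57.4 and 35.4 CPM in NX JV101 (replicates 1 to 3), 28.6, 47.2 and 38.4 in NX saline, 52.2, 23.8 and 10.5 in sham JV101 and 12.3, 33.4 and 41.8 in sham saline. The lowest of the 6 NX values was 23.0 CPM and each sham group held a lower one, yet all 4 groups overlapped. *Mrc1* was at 26.0, 72.2 and 45.0 CPM in NX JV101, 43.5, 56.5 and 41.6 in NX saline, 68.3, 37.6 and 13.1 in sham JV101, and 19.9, 33.0 and 48.8 in sham saline. *Cd163* was at 21.4, 54.6 and 25.1 CPM in NX JV101, 25.7, 56.7 and 43.9 in NX saline, 62.4, 29.1 and 11.8 in sham JV101, and 15.4, 37.5 and 41.6 in sham saline. Both genes overlapped between all groups, with their lowest value in sham JV101 replicate 3.

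*Timd4* behaved differently. It was at 1.84, 3.68 and 2.92 CPM in NX JV101 (54, 156 and 117 counts), 1.77, 1.64 and 2.38 CPM in NX saline, 2.60, 1.45 and 0.719 CPM in sham JV101, and 0.972, 1.33 and 1.36 CPM in sham saline (38, 23 and 44 counts). Every NX library, with either injection, was above every sham saline library, while sham JV101 overlapped with all 3 other groups. The share of all genes with this joint pattern was not counted. Taken singly, NX saline lay above sham saline without overlap for 4.90% of all genes, and NX JV101 did for 10.2%.

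*Ccr2*, the recruited marker, was at 1.40, 4.01 and 0.524 CPM in NX JV101 (41, 170 and 21 counts), 2.00, 1.67 and 2.98 CPM in NX saline, 2.65, 2.53 and 1.89 CPM in sham JV101, and 1.18, 3.06 and 3.28 CPM in sham saline. Both the highest and the lowest of the 12 values were in NX JV101, and the groups overlapped. *Cx3cr1*, found on patrolling monocytes and on a part of tissue macrophages, rested on 8 to 115 counts a library. It was at 0.988, 1.96 and 0.773 CPM in NX JV101, 2.47, 0.230 and 1.35 in NX saline, 3.15, 1.31 and 0.329 in sham JV101, and 1.18, 0.577 and 0.495 in sham saline, a 13.7-fold range with no group apart from the others.

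The broad markers other than *Cx3cr1* repeated the pattern of *Lyve1*. *C1qa* averaged 59.3 ± 31.9 CPM in NX JV101, 51.8 ± 8.04 in NX saline, 46.2 ± 34.7 in sham JV101 and 42.1 ± 17.8 in sham saline (SD, n = 3 each, as for all means here). *Csf1r* averaged 56.1 ± 27.3, 49.4 ± 5.53, 46.3 ± 27.5 and 46.4 ± 19.7 CPM in the same 4 groups. *Cd68* and *Adgre1* had ranges of 3.74 to 13.8 and 3.35 to 23.5 CPM over the 12 libraries. In each of these 4 genes NX saline had the smallest SD of the groups. The labels do not say whether counting used the strand, and exons of *Csf1r* overlap *Hmgxb3* on the opposite strand over 873 bases, and those of *Cx3cr1* overlap *Gm33858* over 78 bases, in GENCODE vM21, so reads there could belong to either gene.

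**Figure D2:**
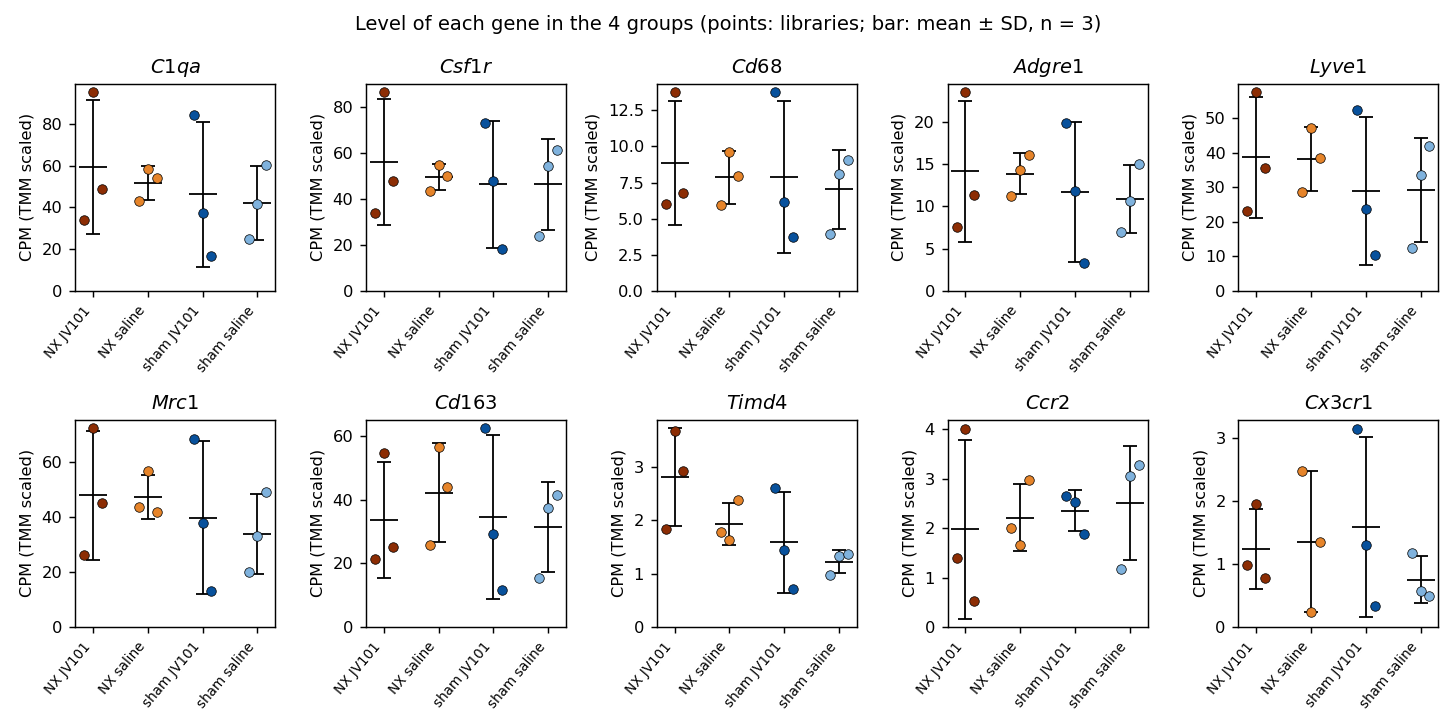
CPM (TMM scaled, linear axis from 0) of each gene in NX JV101, NX saline, sham JV101 and sham saline. Points are libraries, the long bar is the mean and the whiskers are the SD (n = 3). The sham JV101 points span most of the panel for 8 genes, all but *Ccr2* and *Timd4*. For *Timd4* all 6 NX points lie above the 3 sham saline points, a pattern whose share among all genes was not counted.

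After nephrectomy in saline-injected mice no member passed an adjusted p of 0.05 in edgeR's quasi-likelihood test, as was true of all 14412 genes (background 0%). At an unadjusted p under 0.05 there were 0 of 10 members, against 3.64% of all genes. The log2 fold changes of NX saline over sham saline were positive for 9 of 10 genes, with a median of 0.37 where all genes had a median of 0.02. In the same contrast 10 of 10 fibroblast markers were positive (median 0.48) and 8 of 10 endothelial markers (median 0.59), while 8 of 10 cardiomyocyte markers were negative (median −0.13), and their part in the values of the 10 genes was not tested. The log2 fold changes of the resident markers were 0.66 (SE 0.44) for *Timd4*, 0.48 (SE 0.52) for *Mrc1*, 0.42 (SE 0.58) for *Cd163* and 0.39 (SE 0.56) for *Lyve1*. *Ccr2* was at −0.18 (SE 0.61), the one negative value, and *Cx3cr1* at 0.82 (SE 0.85). *Csf1r* and *Cd68* were close to no difference at 0.09 (SE 0.48) and 0.17 (SE 0.48), with *C1qa* at 0.30 (SE 0.53) and *Adgre1* at 0.35 (SE 0.55). *Timd4* alone had groups that did not overlap (edgeR adjusted p = 0.994), which 4.90% of all genes also showed in this direction. Without sham saline replicate 1 the fold changes of *Lyve1* and *C1qa* came to 0.02 and 0.02, and that of *Timd4* ranged over 0.51 to 0.77 in the 6 fits that each lacked 1 library of these groups.

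For JV101 after nephrectomy the genes had a median log2 fold change of 0.03 in NX JV101 over NX saline (all genes 0.01), with 0 of 10 past the adjusted threshold (background 0%) and 0 of 10 at an unadjusted p under 0.05 (background 2.39%). *Timd4* had the largest value, 0.55 (SE 0.43, edgeR adjusted p = 1.00), *Cd163* was at −0.32 (SE 0.57) and *Ccr2* at −0.15 (SE 0.61). The value of *Ccr2* was decided by single libraries, at −1.21 when NX JV101 replicate 2 was left out and 0.31 when replicate 3 of that group was. In sham-operated mice the median for sham JV101 over sham saline was 0.13 (all genes 0.03), again with 0 of 10 past the adjusted threshold (background 0%) and 0 of 10 at an unadjusted p under 0.05 (background 1.70%). There *Cx3cr1* was at 1.07 (SE 0.85), *Timd4* at 0.39 (SE 0.44) and *Ccr2* at −0.08 (SE 0.61). The value of *Cx3cr1* came to 0.07 without sham JV101 replicate 1.

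Between NX JV101 and sham JV101 the median was 0.27 (all genes 0.00), and 0 of 10 passed, adjusted (background 0%) or unadjusted (background 2.07%). *Timd4* was at 0.82 (SE 0.43, edgeR adjusted p = 0.999) and *Ccr2* at −0.25 (SE 0.60). The widest contrast, NX JV101 over sham saline, differs in surgery and injection together. There *Timd4* averaged 2.81 ± 0.923 CPM in NX JV101 and 1.22 ± 0.216 CPM in sham saline, a log2 fold change of 1.21 (SE 0.44). Its edgeR adjusted p was 0.780, so it did not pass (0 of 10 members, background 0%). It was the 1 of 10 members at an unadjusted p under 0.05, against 6.21% of all genes, and the 1 of 10 without overlap in this direction, against 10.2%. *Mrc1* and *C1qa* were both at 0.50 (SE 0.52 and 0.53), *Cd163* at 0.10 (SE 0.57) and *Ccr2* at −0.33 (SE 0.61). Leaving out 1 library at a time moved *Timd4* between 0.97 and 1.44, and *Ccr2* between −1.39 (NX JV101 lacking replicate 2) and 0.13 (NX JV101 lacking replicate 3).

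The 5 contrasts share libraries, so their values are not independent. An interaction of nephrectomy and JV101 was called for 0 of 10 genes (background 0%) and was at an unadjusted p under 0.05 for 0 of 10 (background 1.78%), with 0.16 (SE 0.61) for *Timd4* and −1.19 (SE 1.19) for *Cx3cr1*. Over the 4 groups together no member was called (background 0%; unadjusted 0 of 10, background 2.21%), with an edgeR adjusted p of 1.00 at each. The plot of fold changes sets the 5 contrasts beside one another.

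**Figure D3:**
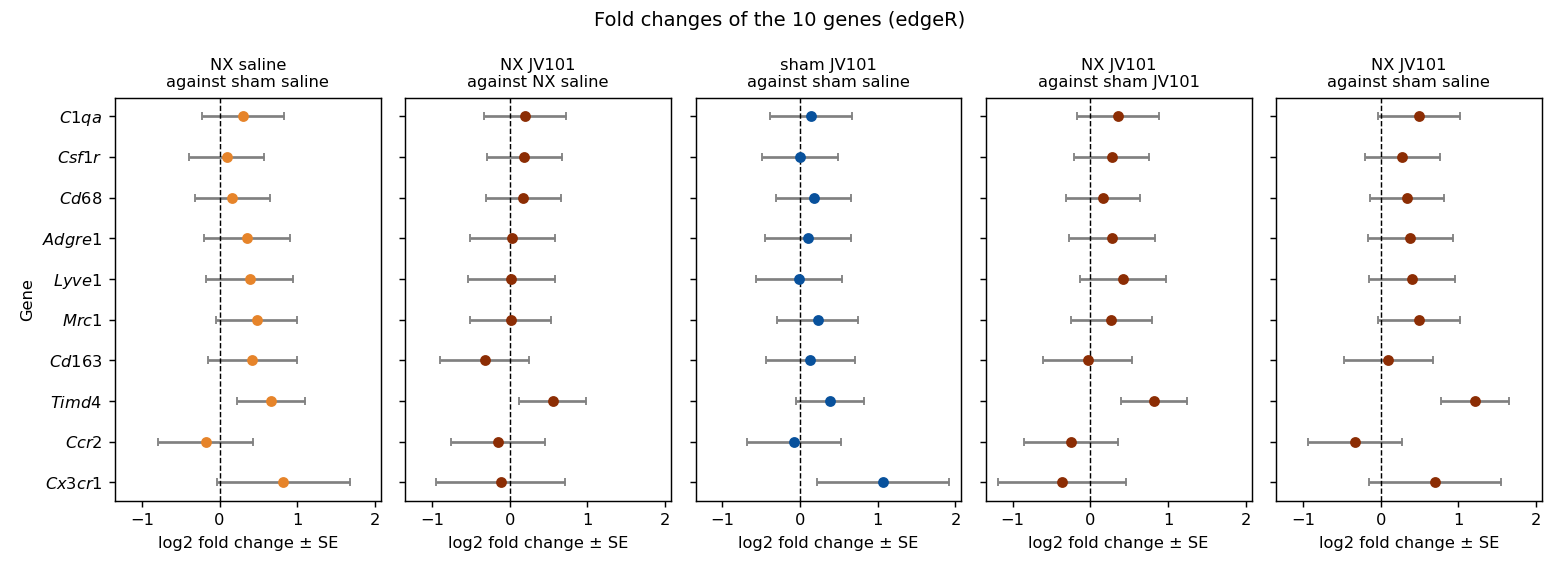
Log2 fold change (points) and its SE (whiskers) from edgeR for the 10 genes in NX saline against sham saline, NX JV101 against NX saline, sham JV101 against sham saline, NX JV101 against sham JV101 and NX JV101 against sham saline. Positive values are higher in the first-named group. *Timd4* lies furthest right in the last panel, at 1.21, while *Ccr2* is left of zero in each panel by less than its SE.

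Of the resident markers, *Timd4* thus had the widest separation from sham saline, and markers of other cells are given beside it. The summed level of 10 fibroblast markers ran from 1271 to 2914 CPM in NX JV101, from 1050 to 1711 in NX saline, from 516 to 2734 in sham JV101 and from 819 to 1468 in sham saline, and 10 of 10 of them were positive in NX JV101 over sham saline with a median of 0.70. That of 20 macrophage genes outside the 10, among them *C1qb*, *Mertk* and *Tyrobp*, ran from 320 to 825, 387 to 532, 212 to 728 and 244 to 561 CPM in the same order, with 17 of 20 positive and a median of 0.40. *Timd4* correlated with the score of the 20 macrophage genes (r = 0.81, rho = 0.59, adjusted permutation p = 0.00461 and 0.0963), so that rho did not pass, and r was 0.55 without the 2 libraries farthest from the median. With the score of the fibroblast markers it had r = 0.90 and rho = 0.75 (adjusted permutation p = 0.000724 and 0.0200), and r was 0.76 without the 2 farthest. A score here is the mean over a list of log2 CPM centred on each gene's mean. With the macrophage score as a covariate, a fit chosen after the data were seen, *Timd4* was at 0.95 (SE 0.26) in NX JV101 over sham saline. Its edgeR adjusted p was 0.345, and it was at an unadjusted p under 0.05, as were 9.30% of all genes. In the same fit it was at 0.66 (SE 0.25, unadjusted p under 0.05, edgeR adjusted p = 1.00) in NX JV101 over sham JV101, where 2.84% of all genes were under that threshold. *Cd163* was then at −0.47 (SE 0.19, unadjusted p under 0.05, edgeR adjusted p = 0.997) in NX JV101 over NX saline, against 4.74% of all genes. The part of the fibroblast level in the *Timd4* values was not tested.

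The contrast of resident with recruited markers was taken within each library as the mean log2 ratio of the counts of *Lyve1*, *Timd4*, *Cd163* and *Mrc1* to the count of *Ccr2*, which library size and macrophage content common to all 5 genes do not alter. The ratio was 3.15, 2.91 and 5.14 in NX JV101, 2.95, 3.74 and 2.76 in NX saline, 3.38, 2.46 and 1.63 in sham JV101 and 2.72, 2.32 and 2.49 in sham saline. Group means were 3.73 ± 1.22, 3.15 ± 0.519, 2.49 ± 0.874 and 2.51 ± 0.201 in that order. All 6 NX values were above the 3 sham saline values, though sham JV101 replicate 1 lay among the NX libraries. NX saline replicate 3, at 2.76, was just above sham saline replicate 1, at 2.72. Gene by gene this separation held for *Lyve1* alone, and its share among other genes was not counted. NX saline replicate 3 lay below sham saline replicate 1 for *Mrc1* (3.81 against 4.08) and *Timd4* (−0.32 against −0.28). For *Cd163* NX saline replicate 1 lay below sham saline replicate 1 (3.69 against 3.71). The mean of NX JV101 exceeded that of sham saline by 1.22, but by 0.52 without NX JV101 replicate 3. Likewise the excess of NX JV101 over NX saline was 0.58 with that library and −0.12 without it, and that of NX JV101 over sham JV101 was 1.24 and 0.54. NX saline exceeded sham saline by 0.64, and by 0.35 without NX saline replicate 2. No p is given for the ratio, because its genes were chosen together with the question. *Ccr2* alone stood for recruited cells in it. The summed level of further markers of recruited monocytes was 26.1 to 29.1 CPM in NX saline and 9.31 to 17.8 in sham saline. Their median log2 fold change there was 0.88, against 0.33 for further resident markers, so that list did not share the direction of the ratio. In NX JV101 the sum was 13.3 to 34.6 CPM and in sham JV101 6.44 to 40.7.

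As a share of the counts of the 4 resident markers and *Ccr2*, *Ccr2* made up 1.49 ± 0.878% in NX JV101, 1.76 ± 0.666% in NX saline, 3.02 ± 1.80% in sham JV101 and 2.53 ± 0.256% in sham saline. NX JV101 replicate 3 had 21 *Ccr2* counts against 4350 resident counts, a share of 0.480% (exact binomial 95% interval 0.298% to 0.733%, for counting error only). Sham JV101 replicate 3, at the other end, had 63 against 1205, or 4.97% (3.84% to 6.31%). These intervals do not meet, while those of the other 2 libraries of NX JV101 (1.37% to 2.57% and 1.79% to 2.42%) meet those of sham saline (1.74% to 3.15%, 2.12% to 3.68% and 1.97% to 2.89%).

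**Figure D4:**
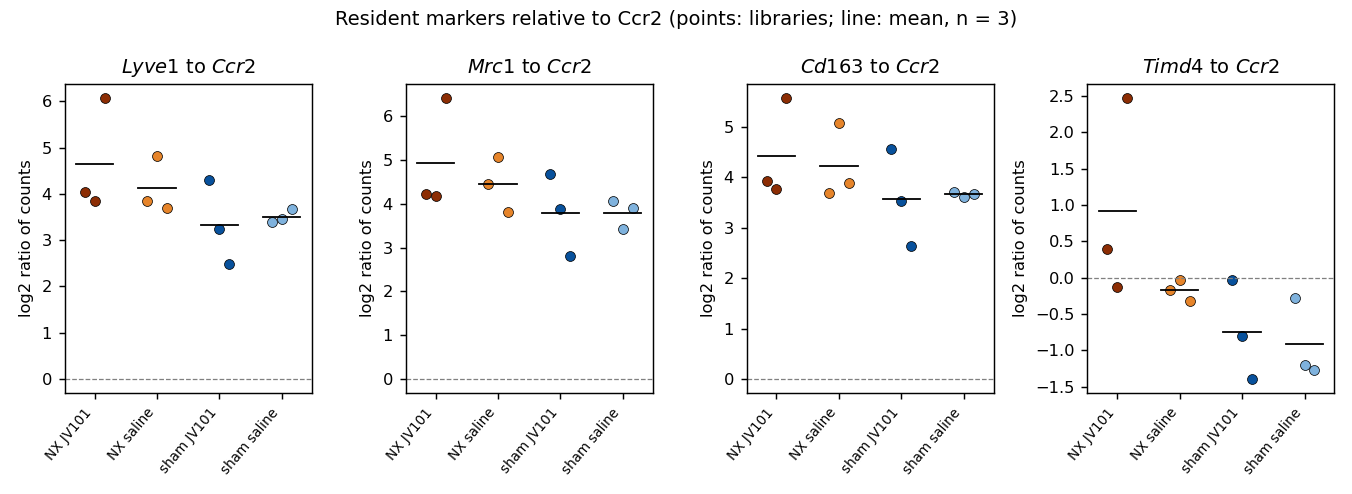
Log2 ratio of the counts of *Lyve1*, *Mrc1*, *Cd163* and *Timd4* to the count of *Ccr2*, with a panel for each gene and the groups NX JV101, NX saline, sham JV101 and sham saline along the axis. Points are libraries and lines are means (n = 3). In each panel NX JV101 replicate 3, with 21 *Ccr2* counts, is the highest point, and the sham saline points of *Cd163* lie close together.

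For 7 of the 9 other genes the proportion to *C1qa* was steadier than the gene's own CPM, the exceptions being *Ccr2* and *Cx3cr1*. The ratio of *Mrc1* to *C1qa* counts varied 1.34-fold over the 12 libraries and that of *Csf1r* to *C1qa* 1.51-fold, while the CPM of *C1qa* itself varied 5.69-fold. *Adgre1*, *Lyve1* and *Cd68* varied 1.57-fold, 1.61-fold and 1.62-fold against *C1qa*, and *Cd163* 1.89-fold. The low genes varied more, *Timd4* by 2.63-fold against *C1qa* (5.11-fold in CPM), *Ccr2* by 10.6-fold (7.65-fold in CPM) and *Cx3cr1* by 14.7-fold (13.7-fold in CPM). *Cd163* to *C1qa* was 0.630, 0.574 and 0.513 in NX JV101, against 0.601, 0.970 and 0.813 in NX saline, where 1 NX saline library lay inside the NX JV101 range. *Timd4* was 5.09 ± 1.09% of the *C1qa* count in NX JV101, 3.78 ± 0.860% in NX saline, 3.75 ± 0.618% in sham JV101 and 3.14 ± 0.844% in sham saline.

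Over the 12 libraries *Adgre1*, *Csf1r*, *Cd68*, *Lyve1*, *Mrc1*, *Cd163* and *C1qa* had pairwise r of 0.91 to 0.98 in log2 CPM (21 pairs), values that share library depth and composition. *Timd4* had r of 0.66 to 0.84 with these 7, *Ccr2* 0.32 to 0.52 and *Cx3cr1* 0.21 to 0.45. *Ccr2* and *Timd4* had r = 0.06. Likeness to the mean of the 10 genes was highest, among 12048 other genes averaging at least 1 CPM, for *C1qb* (r = 0.99), *Cd300ld* (0.99), *Sulf1* (0.99), *Unc93b1* (0.98) and *Arhgdib* (0.98). *C1qb* encodes another chain of C1q and *Sulf1* an extracellular sulfatase that edits heparan sulfate. Nearest to *Lyve1* were *Rpl35a*, *Antxr1*, *Ccl11*, *Pla2g7* and *C1qc* (0.97 to 0.98). Nearest to *Ccr2* were *Tifab* (0.92), *Olfml2b* (0.91), *Pop5* (0.86), *Alox5* (0.84) and *Cyren* (0.84), none of which was among the 5 nearest to *Lyve1* or to the mean of the 10.

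The 7 genes that ran together also ran with some of the other non-myocyte lists. Among 80 relations of the 10 genes with 8 marker scores, the 7 had r of 0.94 to 0.99 with the 20 further macrophage genes (rho 0.83 to 0.96). Their adjusted permutation p of 7.27e-05 for r is the smallest that 100000 permutations can give here, and the largest for rho was 0.00556. Without the 2 libraries farthest from the median r was 0.88 to 0.97, and within groups it was 0.95 to 0.99. With fibroblast markers r was 0.91 to 0.98 (rho 0.88 to 0.96, largest adjusted permutation p = 0.00020 for r and 0.00208 for rho), 0.84 to 0.95 without the 2 farthest libraries and 0.94 to 0.98 within groups. With lymphatic endothelium r was 0.82 to 0.95 (rho 0.73 to 0.91, largest adjusted permutation p = 0.00288 for r and 0.0225 for rho) and 0.61 to 0.87 without the 2 farthest. Levels in that list ran from 3.54 CPM for *Reln* to 31.7 CPM for *Prox1*, with *Ccl21a* at 5.79 CPM. *Prox1* was the 1 negative gene of its 7 in NX JV101 over sham JV101 (−0.30), and its level by itself is no measure of these cells. With blood endothelium r was 0.68 to 0.79 (rho 0.55 to 0.73, largest adjusted permutation p = 0.0300 for r and 0.116 for rho) and 0.46 to 0.62 without the 2 farthest. With neutrophil markers r was 0.37 to 0.52 (smallest adjusted permutation p = 0.141) and with B cell markers 0.02 to 0.31 (smallest adjusted permutation p = 0.379), so neither relation passed. With MHC class II genes r was 0.51 to 0.69, and −0.04 to 0.31 without the 2 farthest libraries. With the 10 cardiomyocyte markers it was −0.89 to −0.78 (rho −0.87 to −0.76, largest adjusted permutation p = 0.00667 for r and 0.0185 for rho), −0.79 to −0.66 without the 2 farthest and −0.90 to −0.78 within groups. The level of the macrophage genes thus ran with fibroblast and against cardiomyocyte markers in these preparations, and the part of cell composition in the group values was not tested.

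*Ccr2* and *Cx3cr1* had smaller r with these lists. *Ccr2* had r = 0.33 with fibroblast markers (adjusted permutation p = 0.351), 0.13 with endothelium and −0.29 with cardiomyocyte markers, and within groups these came to 0.53, 0.28 and −0.50. With the 20 macrophage genes it had r = 0.48 and rho = 0.73 (adjusted permutation p = 0.178 and 0.0225), and r = 0.62 within groups. *Cx3cr1* was closest to neutrophil markers (r = 0.62, rho = 0.66, adjusted permutation p = 0.0634 for r and 0.0491 for rho). This r was 0.75 within groups and 0.25 without the 2 farthest libraries. *Cx3cl1*, which encodes its ligand fractalkine, had r = 0.90 with *Cx3cr1* in log2 CPM and was among the 5 genes nearest to it, a pair singled out after the values were seen.

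**Figure D5:**
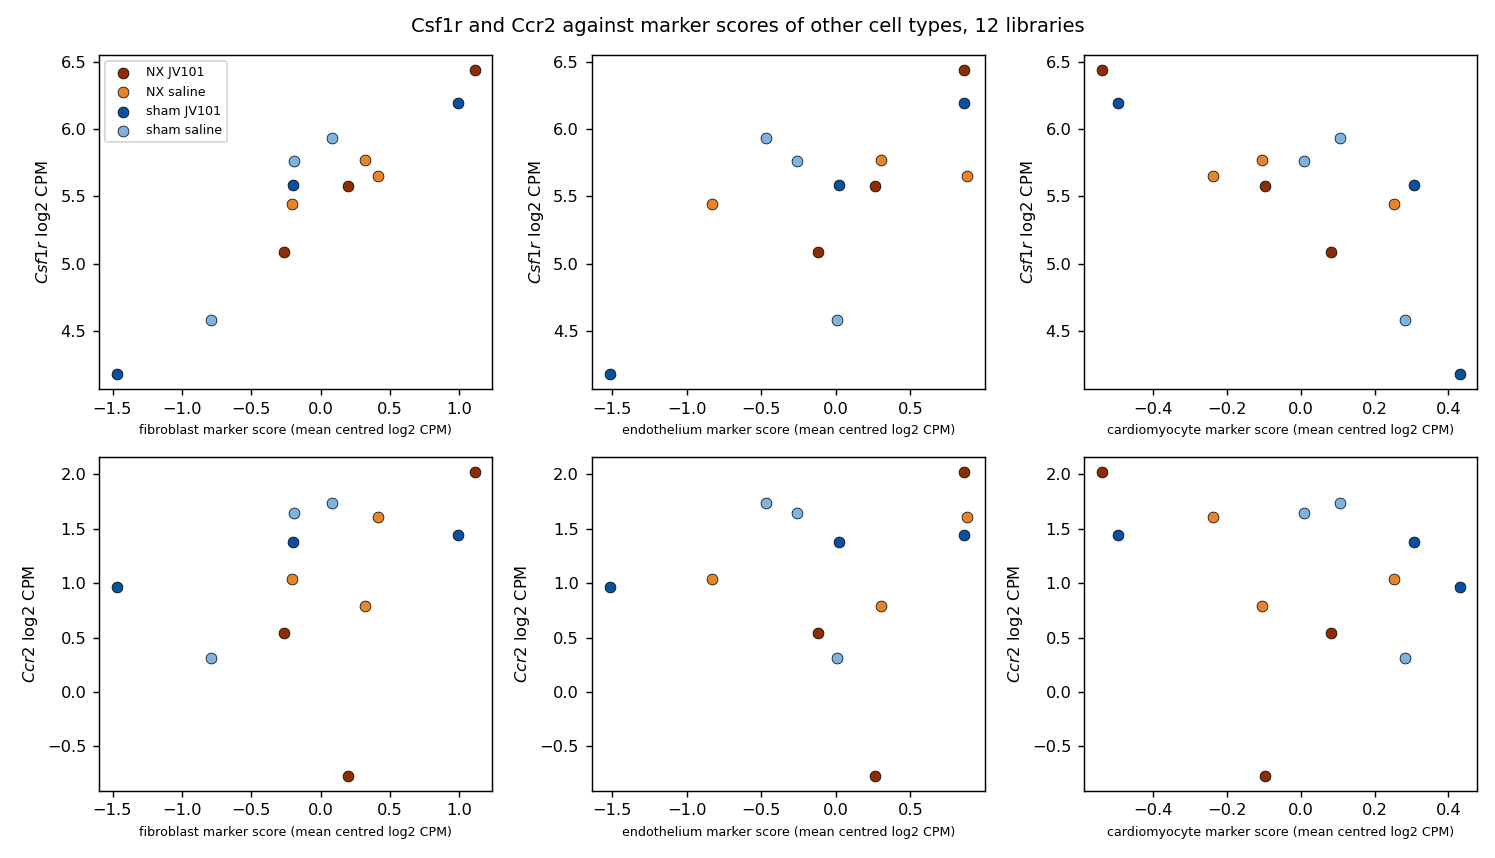
Log2 CPM of *Csf1r* (top) and *Ccr2* (bottom) in the 12 libraries against the scores of fibroblast, endothelium and cardiomyocyte markers, where a score is the mean of centred log2 CPM over the list. Colours give NX JV101, NX saline, sham JV101 and sham saline. *Csf1r* climbs with the fibroblast score (r = 0.94) and declines with the cardiomyocyte score (r = −0.79), whereas *Ccr2* shows r of 0.33 and −0.29.

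Lists of related genes outside the 10 were described in the same contrasts, and no gene of any list passed an adjusted p of 0.05 in edgeR. In the list of 20 macrophage genes, *Fcgr1*, a receptor for IgG, averaged 2.55 ± 1.13 CPM in NX JV101, 1.42 ± 0.362 in NX saline, 1.89 ± 1.13 in sham JV101 and 1.52 ± 0.339 in sham saline. *Cybb*, the NADPH oxidase subunit of phagocytes, averaged 12.3 ± 4.89, 11.0 ± 2.40, 8.58 ± 5.40 and 7.92 ± 2.93 CPM in the same order. Among 11 further resident markers, such as *Folr2*, *Vsig4* and *Cbr2*, 9 were positive in NX saline over sham saline with a median of 0.33, and 4 in NX JV101 over NX saline with a median of −0.18. *Vsig4*, a complement receptor of tissue macrophages, averaged 2.97 ± 1.80 CPM in NX JV101, 2.63 ± 1.06 in NX saline, 2.39 ± 2.06 in sham JV101 and 1.26 ± 0.581 in sham saline. *Retnla*, a secreted product of alternatively activated macrophages, ran the other way, at 5.26 ± 3.61, 7.27 ± 2.62, 6.25 ± 2.64 and 10.9 ± 5.62 CPM in the same order. *Cd209f*, a C-type lectin, averaged 1.10 ± 0.578 CPM in NX JV101 and 2.57 ± 0.313 CPM in NX saline.

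Of 10 further markers of recruited monocytes that were tested, 8 were positive in NX saline over sham saline, their log2 fold changes having a median of 0.88, and 1 was positive in NX JV101 over NX saline, with a median of −0.96. *Ccr2* was at −0.18 and −0.15 in these contrasts, opposite in sign to the list's median in the first and equal in the second. In the second contrast 3 of 10 were lower at an unadjusted p under 0.05, against 1.36% of all genes. Among them were *Itgb7*, an integrin chain, with 0.657 ± 0.432 CPM in NX JV101 and 1.80 ± 0.767 CPM in NX saline (log2 fold change −1.42, SE 0.49), and *Ifitm6*. *Ifitm6* averaged 0.0663 ± 0.0871 CPM in NX JV101 and 0.634 ± 0.550 CPM in NX saline (−3.17, SE 1.38), and edgeR's adjusted p was 1.00 for both. Lymphocytes also carry *Itgb7*. The median of the 10 genes lay between −1.11 and −0.71 whichever library was left out. The summed level of the B cell markers was 0.748 to 2.05 CPM in NX JV101 and 3.26 to 17.4 CPM in NX saline, with 0 of 6 positive, and that of the neutrophil markers 3.99 to 10.2 and 9.32 to 25.1 CPM, with 1 of 6 positive. No gene of either list was at 0 in all libraries, and the part of those cells in these monocyte genes was not tested.

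Genes of antigen presentation on MHC class II, high in many CCR2-positive macrophages and in dendritic cells, were negative in 7 of 7 for NX saline over sham saline (median −0.31), for sham JV101 over sham saline (−0.62) and for NX JV101 over sham saline (−0.42), which share the sham saline libraries. They were also negative in 7 of 7 for NX JV101 over NX saline (−0.10), but positive in 6 of 7 for NX JV101 over sham JV101 (0.20). Their inducer *Ciita* averaged 1.74 ± 1.10 CPM in NX JV101, 1.86 ± 0.780 in NX saline, 1.88 ± 1.04 in sham JV101 and 3.95 ± 0.829 in sham saline. *Cd74*, the invariant chain, averaged 118 ± 67.0, 127 ± 82.9, 103 ± 64.4 and 158 ± 47.2 CPM in the same groups. The summed MHC class II level overlapped between all groups, at 127 to 402 CPM in NX JV101, 159 to 472 in NX saline, 89.1 to 362 in sham JV101 and 265 to 438 in sham saline. The highest sum was in NX saline replicate 3 and the next in sham saline replicate 2. These libraries also had the highest summed B cell markers, at 17.4 and 18.8 CPM. The part of B cells in the MHC class II values was not tested.

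Ligands that draw or sustain these cells had wide ranges. Of 10 chemokine and growth factor genes tested, 6 were positive in NX saline over sham saline (median 0.09) and 9 in NX JV101 over NX saline (median 0.55). *Ccl2*, the ligand of CCR2, averaged 7.36 ± 6.72 CPM in NX JV101, 4.95 ± 0.379 in NX saline, 6.57 ± 6.15 in sham JV101 and 5.21 ± 3.28 in sham saline. *Ccl7*, which CCR2 also binds, averaged 6.73 ± 5.46, 3.82 ± 2.65, 6.10 ± 5.65 and 2.42 ± 1.11 CPM, and *Ccl12*, another such ligand in the mouse, 2.36 ± 2.04, 1.96 ± 1.22, 2.75 ± 2.74 and 0.967 ± 0.566 CPM. Of the ligands of CSF1R, *Csf1* averaged 34.3 ± 1.79, 30.6 ± 4.73, 38.1 ± 11.3 and 31.3 ± 13.7 CPM, and *Il34* averaged 2.71 ± 1.19, 1.79 ± 0.731, 1.64 ± 1.25 and 1.50 ± 0.646 CPM, in the same order of groups. Of 11 inflammatory mediators 5 were positive in NX saline over sham saline (median −0.12) and 7 in NX JV101 over NX saline (median 0.05), with *Il10* at 0.161 ± 0.0907 CPM in NX JV101 and 0.573 ± 0.0303 CPM in NX saline and *Tnf* at 3.33 ± 2.41 and 1.21 ± 0.227 CPM. *Tgfb1* averaged 25.5 ± 7.33 CPM in NX JV101, 25.1 ± 8.93 in NX saline, 20.5 ± 11.6 in sham JV101 and 16.7 ± 1.21 in sham saline.

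Other cell types that such a preparation can hold were present at various levels. In NX saline over sham saline the median log2 fold change was 2.33 for neutrophil markers (5 of 6 positive), 0.30 for mesothelium (9 of 9), 0.39 for smooth muscle and pericytes (7 of 8), −0.77 for T and NK cells (1 of 4), −0.30 for dendritic cells (1 of 4) and −0.07 for mast cells (2 of 5). In NX JV101 over NX saline it was −2.59 for B cells (0 of 6), −2.01 for neutrophils (1 of 6) and −1.22 for mesothelium (0 of 9). It was −0.42 for dendritic cells (1 of 4), −0.47 for mast cells (0 of 5) and −0.38 for T and NK cells (2 of 4). Smooth muscle and pericytes went the other way at 0.39 (8 of 8), as did fibroblasts at 0.39 (8 of 10). Endothelium was at 0.09 (7 of 10) and cardiomyocytes at −0.09 (2 of 10). In sham JV101 over sham saline the median was 2.53 for neutrophils (6 of 6), −0.82 for B cells (0 of 6) and −0.66 for mesothelium (0 of 9). The summed neutrophil level there ran from 2.79 to 40.5 CPM in sham JV101 and from 5.01 to 6.17 CPM in sham saline. None of these genes was called by edgeR. *S100a9*, a calcium-binding protein abundant in neutrophils, averaged 5.26 CPM over the 12 libraries and *Cd79a*, a chain of the B cell receptor complex, 1.31 CPM, against 49.8 CPM for *C1qa*.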

How the data were processed

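The labels describe polyA RNA of isolated cardiomyocytes. Per the submitters' processing notes, fastp, HISAT2, HTSeq and GRCm39 were used, and for their versions, the annotation and strandedness the sources used here give nothing. Counts per gene and FPKM are as the authors deposited them, for 12 libraries of 26.4 to 33.8 M counts, and columns were matched to samples through the column names in the labels. Deposited counts served every main test and deposited FPKM the order of levels and an alternative. No column belonged to another series.

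The 10 genes and the 17 further lists (165 genes) were chosen with earlier results of these data known. Genes were filtered with filterByExpr (minimum count 10, total 15; 14412 kept), scaled by TMM and fitted with edgeR's quasi-likelihood model over all 12 libraries with 4 groups (R 4.3.3, edgeR 4.0.16). The 5 contrasts, the interaction and the joint test were 2-sided F tests, adjusted by Benjamini-Hochberg over all genes. SE is the absolute log2 fold change over the square root of F. The 10 members were named, with 3 genes of each immune list and 2 of each cell type list by smallest p or highest level; other names were chosen after values were seen. Some genes the rule names are not reported here. Correlations used log2 CPM (prior count 2) and 100000 2-sided permutations. Alternatives were DESeq2 1.42.0, RLE and upper-quartile factors, other filters, nuclear counts only, fits of the compared groups only, the replicate number as a block, limma 3.58.1 on log2 FPKM with a pseudocount of 1 or 0.1, and leaving out each library. In counts simulated for NX saline against sham saline (14412 genes, 200 changed), 30% of 2-fold and 89% of 4-fold changes were recovered, with 6 false calls. The changed genes averaged above 1 CPM, all were raised, and each gene was drawn independently. Recovery for lower genes, or with swings shared by many genes, is thus not given. RefSeq promoters and GENCODE vM21 are on an older assembly than the data and served for sequences, names and overlaps.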

Additional observations from a re-analysis of the deposited data

How the results depend on the processing

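No member passed an adjusted p of 0.05 under any setting, and only DESeq2 called other genes: 1 in NX saline against sham saline, 8 in NX JV101 against NX saline (5 of them mesothelial markers), 8 in NX JV101 against sham saline and 11 over the 4 groups. The cause was not tested. *Timd4* in NX JV101 over sham saline stayed between 0.68 (FPKM with a pseudocount of 1) and 1.30 under the other settings, all with an unadjusted p under 0.05 (largest 0.0332), and reached 0.0679 when 1 library was left out.

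Signs turned for 52 of 644 member values under other settings and 100 of 420 when 1 library was left out, none past the threshold. *Csf1r* in NX saline over sham saline was −0.044 and *Cd163* in NX JV101 over sham saline −0.24 with the macrophage covariate. *Ccr2* on log2 FPKM with a pseudocount of 1 was 0.030 in NX JV101 over NX saline and 0.032 in sham JV101 over sham saline, where it was 0.11 with a pseudocount of 0.1 and 0.12 with the covariate; the cause was not tested. Leaving out 1 library gave these ranges. In NX saline over sham saline they were −0.22 to 0.34 for *Csf1r*, −0.13 to 0.40 for *Cd68*, −0.53 to 0.080 for *Ccr2* and −0.016 to 1.33 for *Cx3cr1*. *Ccr2* ran from −1.21 to 0.31 in NX JV101 over NX saline, −0.43 to 0.18 in sham JV101 over sham saline, −1.31 to 0.20 in NX JV101 over sham JV101 and −1.39 to 0.13 in NX JV101 over sham saline. There *Cd163* ran from −0.43 to 0.36 and *C1qa* from −0.020 to 0.85. *Timd4* ran from −0.18 to 0.74 in sham JV101 over sham saline and −0.20 to 0.74 in the interaction. The resident to *Ccr2* ratio ran from 0.35 to 0.83 in NX saline over sham saline, −0.12 to 0.99 in NX JV101 over NX saline, −0.47 to 0.41 in sham JV101 over sham saline, 0.54 to 1.69 in NX JV101 over sham JV101 and 0.52 to 1.63 in NX JV101 over sham saline.

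Same-numbered replicates did not deviate together (mean r −0.11, 0.07 and −0.10 for numbers 1 to 3), so the labels' numbers were not taken as pairs. With the replicate number as a block, 0 genes were called in every comparison and *Timd4* was at 1.20 in NX JV101 over sham saline. *Cx3cr1* did not pass the filter of 1 CPM in 6 libraries and has no value there. Counts of 21 to 170 limit *Ccr2* and 8 to 115 limit *Cx3cr1*.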
